A study of Mus musculus with 6 samples.

Results

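The genes described here are those of Wnt and Norrin signalling: 54 genes of the 55421 listed in the count table, taken as the protein-coding genes whose symbols belong to the Wnt, Fzd, Sfrp, Dkk, Rspo and Lgr families, with 10 further genes added by name. They comprise 19 Wnt ligands, 10 Frizzled receptors, the co-receptors Lrp5 and Lrp6, the Norrin gene Ndp with its receptor partner Tspan12, 7 R-spondins and Lgr receptors, 9 secreted inhibitors of the Dkk, Sfrp and Wif families, and the TCF/LEF transcription factors with the feedback gene Axin2. They were measured by RNA-seq in whole retinas of 6 mice aged 2 months. The 3 control retinas (YR612, YR613, YR615) came from Yap flox/flox animals and the 3 Yap cKO retinas (YR711, YR713, YR714) from Yap flox/flox;Rax-CreERT2 animals. Both groups received 4-hydroxytamoxifen at postnatal days 10 and 14, so that the groups differed in the Cre transgene and share the floxed alleles and the drug. The Rax-driven Cre is active in Müller glia, the main glial cell of the retina, and also in the non-pigmented epithelium of the ciliary body, and the retina was separated from the ciliary region by a cut below the ora serrata. Each retina came from a different animal.

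Wnt proteins are secreted, lipid-modified ligands that bind Frizzled receptors together with Lrp5 or Lrp6, which stabilises beta-catenin and lets it activate genes through TCF/LEF factors. Norrin is an unrelated secreted protein that uses the same route through Fzd4, Lrp5 and Tspan12. In the retina it is made by Müller glia and acts on endothelial cells, where it is needed for growth of the deep vessels and for the blood-retina barrier. In the brain, Wnt7a and Wnt7b play the matching part for the endothelium of the central nervous system.

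Sequencing depth was 24261799 to 35067068 counted fragments per retina. Yap1 was at 9.48, 9.52 and 9.83 TPM (transcripts scaled to library size and length, computed here from counts and exonic length) in the control retinas and at 3.99, 3.76 and 3.94 TPM in the Yap cKO retinas. Its log2 fold change was -1.36 (SE 0.093), so the targeted gene followed the genotype labels. The tissue label was met by rod markers, which summed to 47760 to 54140 TPM per retina. Lens markers summed to 1.83 to 10.3 TPM in control and 0.867 to 2.04 TPM in Yap cKO retinas (2 of 5 tested, 0 called), highest in YR615, with Lim2 at 0 and Mip at 0 to 3 counts. Of the lists of markers for other cell types, those for melanin pigment cells summed to 75.0 to 81.9 TPM in control and 17.9 to 50.6 TPM in Yap cKO retinas (1 of 7 lower, Pmel), and those for retinal pigment epithelium to 654 to 721 and 202 to 706 TPM (0 of 6 called). Markers of the ciliary non-pigmented epithelium summed to 302 to 314 and 279 to 341 TPM, with 3 of 7 lower (Optc, Cldn2 and Slc26a4) and 1 higher (Slc4a4). Aqp1, at 224, 227 and 238 TPM in control and 262, 316 and 296.5 TPM in Yap cKO retinas, made up most of these sums. Fibroblast markers summed to 10.82 to 13.1 TPM in control and 7.80 to 10.76 TPM in Yap cKO retinas, with 1 of the 4 tested lower (Col1a2). Pdgfra, with a log2 fold change of -0.049, made up most of these sums. Müller glia markers summed to 6596 to 6866 TPM in control and 5831 to 6198 TPM in Yap cKO retinas, ranges that do not overlap, although 0 of 10 passed the test. Of the 10, 6 had a negative and 4 a positive log2 fold change. Kcnj10 and Car2 were higher and Rlbp1 lower in all Yap cKO retinas, where the shares over all genes were 15.2% and 9.04%. In whole tissue, fewer cells of a type and less RNA per cell cannot be told apart.

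Of the 54 genes, 40 had enough counts to be tested, 1 was higher in Yap cKO retinas and 0 were lower. The test was the quasi-likelihood test of edgeR, adjusted by the Benjamini-Hochberg method across 16575 genes, and a gene is called at an adjusted p of at most 0.05. The called gene was Wnt7b. The background share was 1.49% of all genes called in either direction and 0.501% called higher, and 2.5% of the 40 tested genes were called, which is that 1 gene. The study's stricter criteria, which also ask for a change of 1.5-fold or more and for a group mean of 5 TPM or more, were met by 0.796% of all genes and by 0 of the 40. The other 39 log2 fold changes lay between -0.87 and 0.82, with adjusted p values of at least 0.106. The median log2 fold change was -0.013 over the 40 and 0.0017 over all genes tested, and 35 of the 40 differed by less than 1.5-fold. Before adjustment, 13 of the 40 (32.5%) had a p under 0.05, 7 positive and 6 negative, against 21.4% of all genes tested. DESeq2, run as an alternative, called 2 of the 40 (Wnt7b and Fzd3) and 892 of the 16575 genes. It gave 8 of the 40 no adjusted p, so those 8 could not be called by it. The 14 untested genes were at or under 0.653 TPM in each retina.

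**Figure D1:**
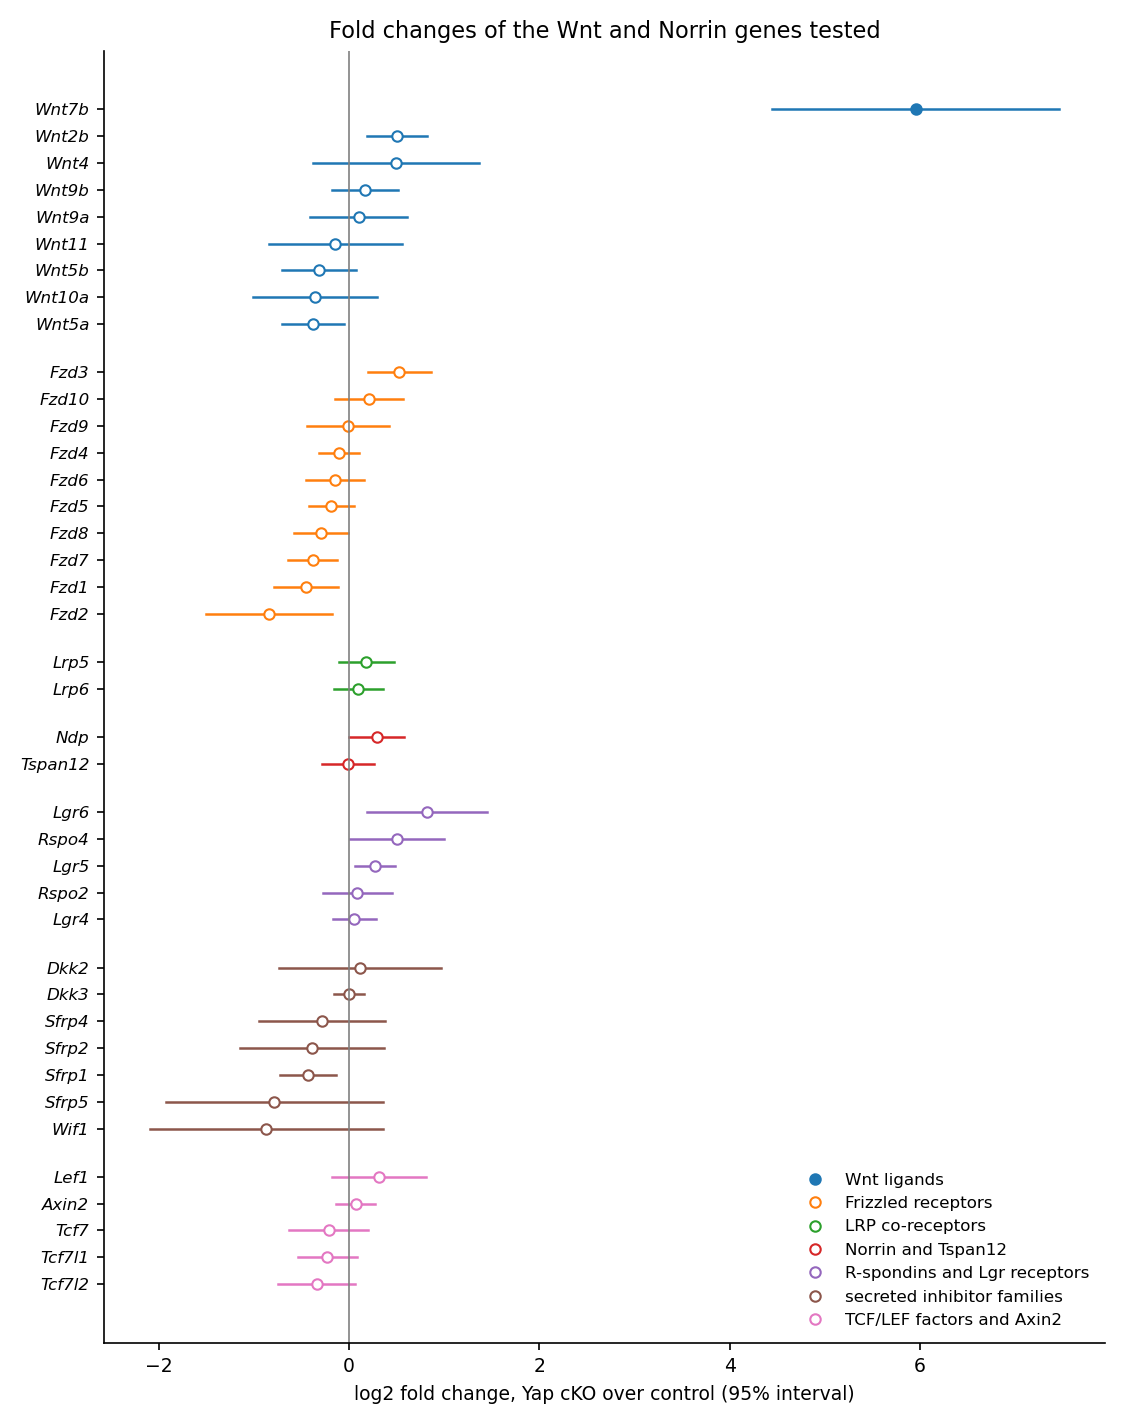
Log2 fold change (Yap cKO minus control) of each of the 40 tested Wnt and Norrin signalling genes, grouped by role, with bars for the 95% interval of the quasi-likelihood fit. Filled points have an adjusted p of at most 0.05, and the only such point is Wnt7b at 5.95, while the others lie between -0.87 and 0.82.

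Wnt7b (ENSMUSG00000022382, chr15:85535437-85582473 on the minus strand of GRCm38), a ligand of the canonical pathway, was close to undetected in control retinas and was present in each Yap cKO retina. Its counts were 0, 4 and 1 in YR612, YR613 and YR615 and 49, 158 and 155 in YR711, YR713 and YR714. In TPM these were 0, 0.119 and 0.0266 against 1.57, 3.71 and 4.63, or 0.0486 ± 0.0626 in control and 3.30 ± 1.57 in Yap cKO (SD, n = 3). The groups did not overlap, the lowest Yap cKO count being 49 and the highest control count 4. YR711 had the lowest Yap cKO value and was the only one of them under 3 TPM. The log2 fold change was 5.95 (SE 0.67, 95% interval 4.44 to 7.46), with an adjusted p of 0.00375 by edgeR's quasi-likelihood test.

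It was the largest log2 fold change toward higher expression among the 16575 genes tested, the next being 2.46. Because the control counts are so few, the fitted size depends on the small offset that the fit adds to counts. Summed over retinas, 5 control against 362 Yap cKO counts gave a ratio per counted fragment of 66.3, with a 95% counting interval of 28.1 to 205 that covers counting error only. Wnt7b passed the filter on low counts through the Yap cKO retinas alone. Leaving out each retina in turn gave log2 fold changes of 5.46 to 7.48, and the gene was called each time. The highest retina, at 4.63 TPM, was below the minimum of 5 TPM in the study's criteria, which is the only one of them that Wnt7b missed. The summed endothelial (206 to 219 against 192 to 262 TPM) and microglial markers (57.6 to 74.9 against 62.7 to 76.7 TPM) overlapped between the groups. Of the 6 microglial markers, 3 (P2ry12, Cx3cr1 and Csf1r) were higher in all Yap cKO retinas, where the share over all genes was 15.2%, and 0 were called. The sums for melanin pigment cells, fibroblasts and Müller glia given above were lower in all Yap cKO retinas. For fibroblasts the ranges nearly met, at 10.82 and 10.76 TPM, and for Müller glia 4 of 10 markers had a positive log2 fold change. The sum for amacrine cells was higher (484 to 566 against 585 to 652 TPM, 0 of 6 called). Of the 7 ciliary non-pigmented epithelium markers, 5 had a negative and 2 a positive log2 fold change. Optc, Cldn2 and Slc26a4 were called lower (-3.41, -3.35 and -5.03). Slc4a4 was called higher (0.57), Aqp1 was higher in all Yap cKO retinas (0.29, not called), and the summed list overlapped between the groups. The part of these marker lists in the Wnt7b result was not tested.

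Wnt7a, the closest relative of Wnt7b, was at 1 to 3 counts in each retina and was not tested. Most Wnt ligands were likewise scarce in this tissue. Wnt1 had no count in any retina, and 10 of the 19 ligands had too few counts to test (Wnt1, Wnt2, Wnt3, Wnt3a, Wnt6, Wnt7a, Wnt8a, Wnt8b, Wnt10b and Wnt16). In control retinas 7 ligands averaged at least 1 TPM and 2 at least 5 TPM, Wnt5b at 7.51 TPM and Wnt2b at 5.45 TPM. At 3.30 TPM, the mean of Wnt7b in Yap cKO retinas was within the range of those ligands.

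Among the 8 other ligands tested, 4 had a positive and 4 a negative log2 fold change, and none passed edgeR's quasi-likelihood test. Before adjustment 2 of the 8 had a p under 0.05 (Wnt2b and Wnt5a), where the share over all genes was 21.4%. DESeq2 called 0, against 892 of the 16575 genes over all, but it could not call any gene to which it gave no adjusted p. Wnt2b (ENSMUSG00000027840, chr3:104945272-104961921, minus strand), a ligand known from the ciliary margin of the eye, was at 4.69, 6.56 and 5.11 TPM in the controls against 8.68, 8.34 and 7.07 TPM in the Yap cKO. All 3 Yap cKO values lay above all control values, with a log2 fold change of 0.50 (95% interval 0.18 to 0.82, adjusted p 0.108 by edgeR's quasi-likelihood test). Wnt5a, a ligand best known for signalling without beta-catenin, was at 2.95, 2.93 and 2.89 TPM against 2.68, 2.45 and 1.89 TPM. Here every Yap cKO value lay below every control value, with a log2 fold change of -0.38 (95% interval -0.71 to -0.05, adjusted p 0.185 by the same edgeR test). For the remaining 6 (Wnt4, Wnt5b, Wnt9a, Wnt9b, Wnt10a and Wnt11) the groups overlapped, and the values ran from -0.36 for Wnt10a to 0.49 for Wnt4.

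**Figure D2:**
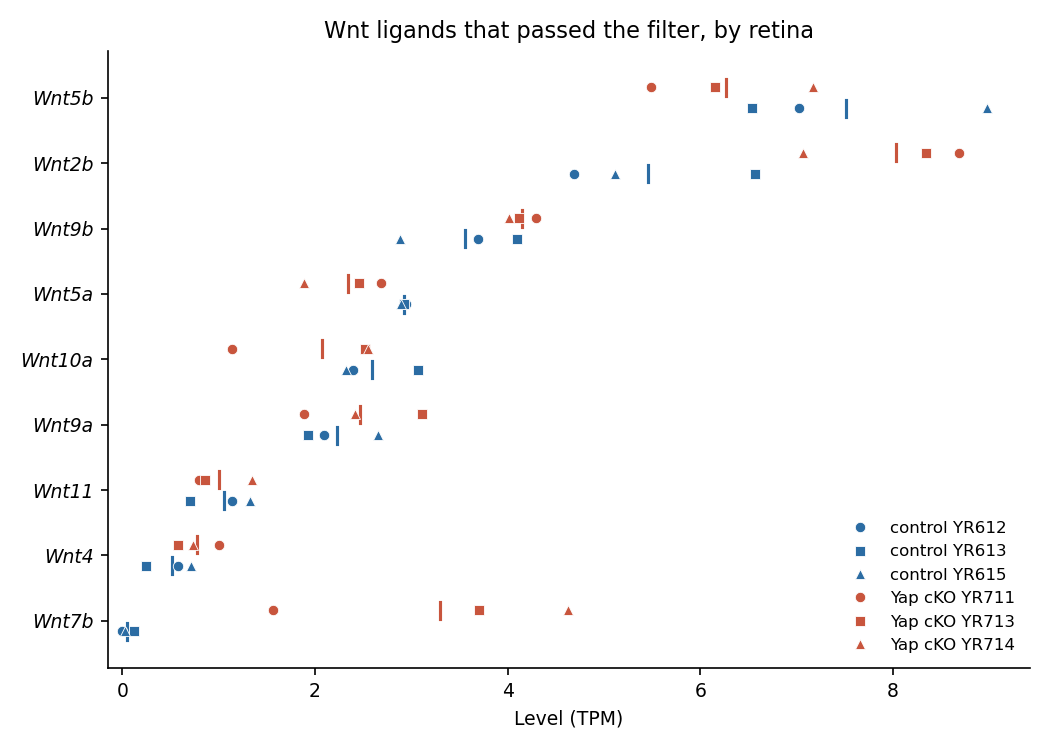
Level in TPM of the 9 tested Wnt ligands in each control (blue) and each Yap cKO (red) retina, 1 point per retina, with a bar at each group mean. Wnt7b is at or under 0.119 TPM in the 3 control retinas and at 1.57 to 4.63 TPM in the 3 Yap cKO retinas, and Wnt2b and Wnt5a are the other ligands whose groups do not overlap.

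No other tested gene near Wnt7b was called higher. This window was chosen after the Wnt7b values were seen. Of the genes whose span reaches within 500 kb of its transcribed region, 13 besides Wnt7b were tested, 5 with a positive and 8 with a negative log2 fold change. The 1 called among them was Fbln1, an extracellular matrix gene, which averaged 43.8 TPM in control retinas and 5.004 TPM in the Yap cKO (log2 fold change -3.15, adjusted p 0.0231 by edgeR's quasi-likelihood test). The nearest tested gene upstream was the noncoding Lncppara, 71.1 kb away, at 4.04, 6.31 and 4.999 TPM in the controls against 3.93, 3.25 and 2.97 TPM in the Yap cKO. The groups did not overlap. Its log2 fold change was -0.66 (adjusted p 0.125 by the same edgeR test). Ppara, a nuclear receptor gene 152.5 kb away, had a log2 fold change of 0.63 (adjusted p 0.197 by edgeR). For Atxn10, the nearest tested gene on the other side, it was -0.060.

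**Figure D3:**
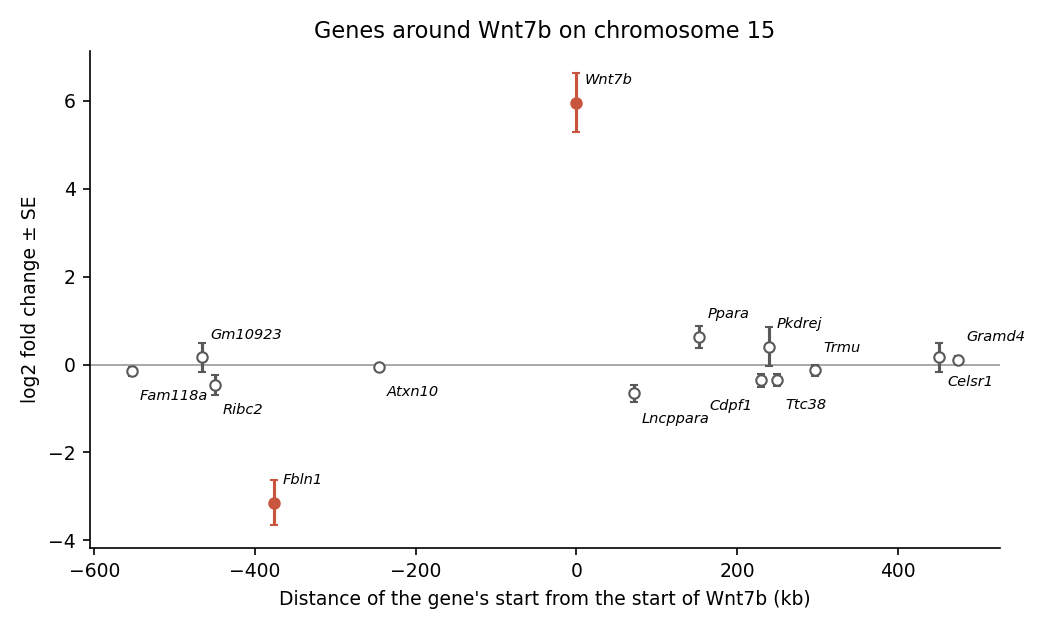
Log2 fold change (Yap cKO minus control, bars 1 SE) of Wnt7b and of the 13 other tested genes near it, by distance in kb of the gene's start from the start of Wnt7b. Filled points have an adjusted p of at most 0.05. Wnt7b stands at 5.95, Fbln1 at -3.15, and the remaining 12 lie between -0.66 and 0.63.

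Ndp (ENSMUSG00000040138, chrX:16885521-16911774, minus strand), which encodes Norrin, was expressed at a higher level than any Wnt ligand. It was at 20.3, 18.6 and 24.4 TPM in the controls against 25.2, 27.7 and 27.7 TPM in the Yap cKO, so that the groups did not overlap, though the highest control and the lowest Yap cKO retina were close. The log2 fold change of 0.29 had a 95% interval from 0.00069 to 0.58 and did not pass the test (adjusted p 0.232 by edgeR's quasi-likelihood test). For the receptor side of the Norrin complex the groups overlapped. Fzd4, its Frizzled receptor, was at 9.25, 10.9 and 9.55 TPM against 9.39, 9.58 and 9.63 TPM, and the interval of its log2 fold change ran from -0.32 to 0.10. Lrp5, the co-receptor, was at 5.60, 4.56 and 4.46 TPM against 5.58, 6.14 and 5.52 TPM, with an interval of -0.11 to 0.47.

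Tspan12, the tetraspanin that enhances Norrin signalling, was at 12.4, 15.4 and 16.9 TPM against 16.2, 15.2 and 14.8 TPM, with an interval of -0.28 to 0.26. Intervals of Fzd4, Lrp5 and Tspan12 all included 0. Lrp6, the other co-receptor for Wnt ligands, was at 16.4, 21.02 and 16.6 TPM against 21.4, 21.7 and 17.0 TPM. Its log2 fold change was 0.098 (interval -0.16 to 0.35). Lrp6 has 13672 exonic bases, and the median log2 fold change of all genes ran from -0.17 in the shortest to 0.21 in the longest length decile. After a correction for gene length Lrp6 was at -0.14 and Lrp5 at 0.023. The correction moved other values away from 0. Ndp, with 1939 exonic bases, went from 0.29 to 0.41 (adjusted p 0.0738 by edgeR's quasi-likelihood test). Rspo4 went from 0.50 to 0.60, Wnt5a from -0.38 to -0.49 and Tcf7l2 from -0.34 to -0.47.

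The Frizzled receptors had 8 negative and 2 positive log2 fold changes, and none of the 10 passed edgeR's quasi-likelihood test. Before adjustment 5 of the 10 had a p under 0.05, where the share over all genes was 21.4%. DESeq2 called 1 (Fzd3), against 892 of the 16575 genes over all, but it gave Fzd2 no adjusted p and so could not call it. For 4 of them every Yap cKO retina lay below every control retina, namely Fzd1, Fzd2, Fzd7 and Fzd8, where the share over all genes was 9.04%. Fzd1 was at 9.03, 8.69 and 11.3 TPM in the controls against 6.71, 8.65 and 6.59 TPM in the Yap cKO (log2 fold change -0.46, interval -0.80 to -0.12). Fzd7 was at 7.56, 7.21 and 7.78 TPM against 6.56, 5.78 and 5.68 TPM (-0.38, interval -0.64 to -0.12). Fzd8 was at 3.76, 3.86 and 4.07 TPM against 3.15, 3.19 and 3.58 TPM (-0.29, interval -0.58 to -0.01). For Fzd1 the gap between the groups was small beside the spread within them. Fzd2 was scarce, with 27, 23 and 27 counts against 10, 16 and 20 counts, and its log2 fold change of -0.85 had an interval of -1.51 to -0.18.

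Fzd3 (ENSMUSG00000007989, chr14:65192449-65262463, minus strand), a receptor known for axon guidance, had the largest positive value of the family. It was at 11.2, 17.4 and 13.8 TPM in the controls against 23.7, 22.7 and 17.2 TPM in the Yap cKO. The groups overlapped, since YR613 lay above YR714. The log2 fold change was 0.53 (interval 0.20 to 0.86, adjusted p 0.106 by edgeR's quasi-likelihood test), and it was 0.31 after the correction for gene length. It was called when YR613 or YR714 was left out, without the filter on low counts, by the likelihood ratio test and by DESeq2. Fzd5, the most abundant Frizzled in control retinas, was at 36.8, 39.3 and 39.5 TPM against 41.9, 32.8 and 30.9 TPM. Fzd10 was at 19.9, 21.6 and 24.1 TPM against 19.7, 29.7 and 29.2 TPM. Both overlapped between the groups.

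**Figure D4:**
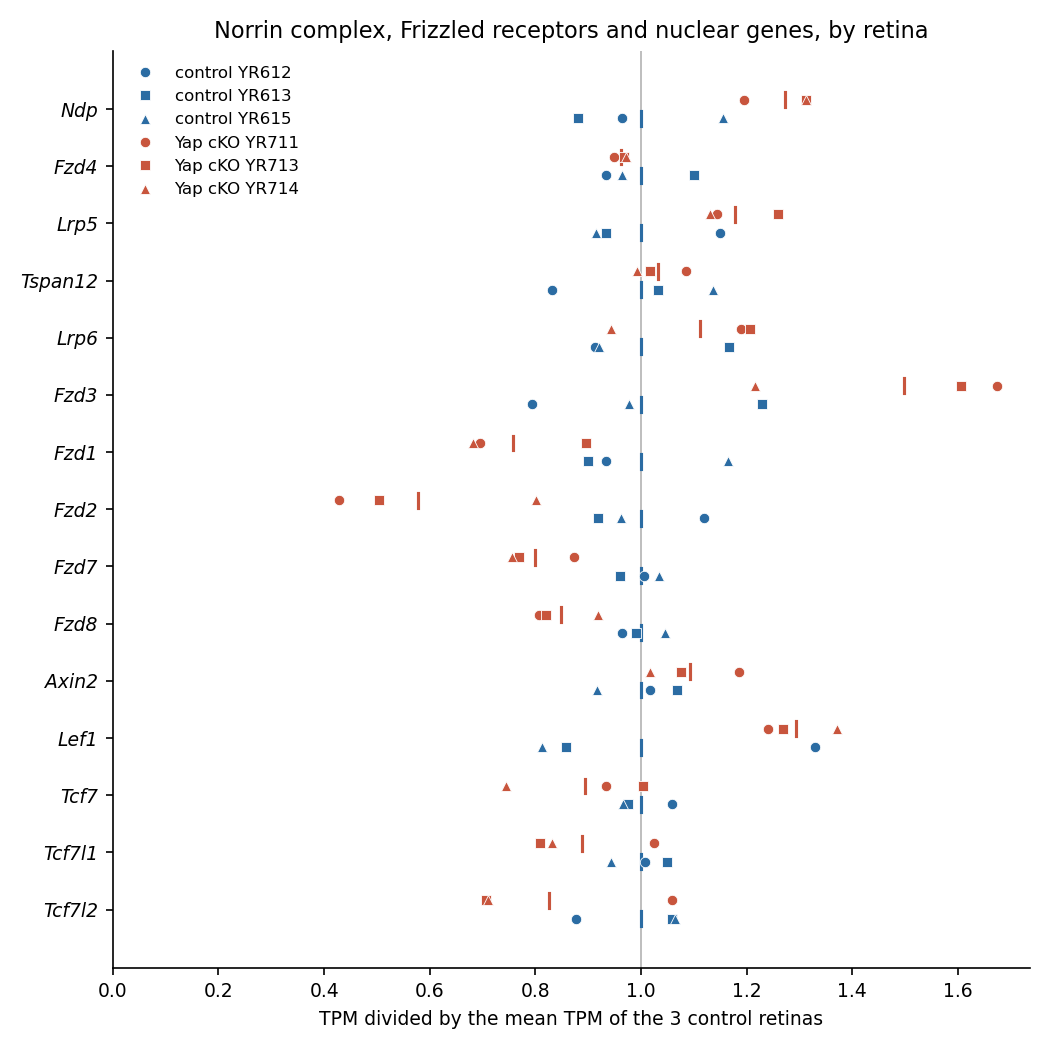
TPM of the Norrin complex, Lrp6, 5 Frizzled receptors, Axin2 and the TCF/LEF factors in each control (blue) and Yap cKO (red) retina, divided by the control mean of the gene, with a bar at each group mean. The Yap cKO points lie below all control points for Fzd1, Fzd2, Fzd7 and Fzd8, and above them for Ndp.

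The R-spondins and Lgr receptors, which together raise Wnt responses by keeping Frizzled receptors at the cell surface, had 5 positive values of 5 tested, and none passed edgeR's quasi-likelihood test. Before adjustment 3 had a p under 0.05, where the share over all genes was 21.4%. DESeq2 called 0, against 892 of the 16575 genes over all, but it gave Lgr6 no adjusted p and so could not call it. Lgr5 was at 8.33, 9.82 and 9.66 TPM in the controls against 12.8, 11.8 and 10.3 TPM in the Yap cKO, without overlap (log2 fold change 0.27, interval 0.056 to 0.49, adjusted p 0.1598 by edgeR's quasi-likelihood test). The correction for gene length brought it to 0.11. Lgr6 was also without overlap but rested on 8, 10 and 15 against 19, 26 and 18 counts (0.82, interval 0.19 to 1.45). Lgr4, the most abundant of the group at 33.4, 41.8 and 41.0 TPM against 46.8, 41.7 and 37.3 TPM, overlapped, with an interval of -0.17 to 0.28. The ligand Rspo4 was at 2.37, 3.08 and 3.40 TPM against 5.02, 3.30 and 4.88 TPM (0.50, interval 0.013 to 0.99), the groups overlapping. Rspo1 and Rspo3 had too few counts to test.

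The secreted inhibitors had 2 positive and 5 negative values among 7 tested, and none passed edgeR's quasi-likelihood test. Before adjustment 1 had a p under 0.05 (Sfrp1), where the share over all genes was 21.4%. DESeq2 called 0, against 892 of the 16575 genes over all, and could not call genes to which it gave no adjusted p. Dkk3, a divergent member of the Dickkopf family that is not an established Wnt antagonist, was far above all others at 1240, 1343 and 1323 TPM in the controls against 1437, 1328 and 1308 TPM in the Yap cKO. It made up 81.3% of the summed control TPM of the 54 genes, and its log2 fold change was 0.0029 with an interval of -0.15 to 0.16. The 4 genes with an Sfrp symbol, whose products bind Wnt ligands outside the cell, all had negative values. Frzb, of the same family but without an Sfrp symbol, is given below with the other pathway genes and was called lower. Sfrp1 was at 7.04, 7.81 and 7.65 TPM against 4.94, 6.52 and 5.82 TPM, without overlap (-0.43, interval -0.73 to -0.14, adjusted p 0.125 by edgeR's quasi-likelihood test). Sfrp5 had 17, 18 and 12 against 5, 6 and 18 counts, with an interval of -1.93 to 0.35. Wif1, another Wnt-binding inhibitor, had 19, 10 and 16 against 3, 20 and 4 counts, with an interval of -2.10 to 0.35. In both, 1 Yap cKO retina was at the control level or above (YR714 for Sfrp5, YR713 for Wif1). Dkk1 and Dkk4 had no count in any retina.

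Axin2 and the TCF/LEF factors, through which the pathway reaches its target genes, gave 2 positive and 3 negative values. Of the 5, 0 passed edgeR's quasi-likelihood test, had an unadjusted p under 0.05 or were called by DESeq2. Over all genes these were 1.49%, 21.4% and 892 of 16575. Axin2 (ENSMUSG00000000142, chr11:108920349-108950783, plus strand), which is induced by beta-catenin and feeds back on it, was at 18.4, 19.4 and 16.6 TPM in the controls against 21.5, 19.5 and 18.4 TPM in the Yap cKO. Its groups overlapped, and the interval of its log2 fold change was -0.14 to 0.28 around 0.069 (adjusted p 0.686 by edgeR's quasi-likelihood test). Lef1 was at 1.26, 0.814 and 0.770 TPM against 1.18, 1.203 and 1.30 TPM, a log2 fold change of 0.32 that was 0.19 after the correction for gene length. Tcf7 was at 2.41, 2.22 and 2.20 TPM against 2.13, 2.28 and 1.70 TPM (-0.21). The groups overlapped for both. Tcf7l1 was at 5.10, 5.32 and 4.78 TPM against 5.19, 4.10 and 4.21 TPM (-0.23). Tcf7l2 was at 1.62, 1.96 and 1.97 TPM against 1.96, 1.31 and 1.32 TPM (-0.34). In both, YR711 was at the control level and the other Yap cKO retinas were the lowest of the 6.

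Over all 40 tested genes, 5 (12.5%) had every Yap cKO retina above every control retina (Wnt7b, Wnt2b, Ndp, Lgr5 and Lgr6), where the share over all genes tested was 15.2%. Another 6 of the 40 had every Yap cKO retina below every control retina (Fzd1, Fzd2, Fzd7, Fzd8, Wnt5a and Sfrp1), where the share over all genes was 9.04%. With 3 retinas against 3, an exact permutation test of a single gene cannot give a p below 0.1. The first share lies below its background and the second above it, and Wnt7b alone of these 11 genes passed edgeR's quasi-likelihood test across all genes.

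Other genes of the pathway were read from a list of 72, of which 70 were tested, 0 were higher and 3 lower by edgeR's quasi-likelihood test. The background for these calls was 1.49% of all genes. Before adjustment, 6 positive and 9 negative values had a p under 0.05, where the share over all genes was 21.4%. DESeq2 called 8 of the 70, against 892 of the 16575 genes over all. All 3 act outside the cell: Gpc4 (ENSMUSG00000031119, chrX:52053021-52165252), a glypican that binds Wnt and other ligands, averaged 8.59 TPM in the controls against 3.98 TPM in the Yap cKO (log2 fold change -1.17, adjusted p 0.0169 by edgeR's quasi-likelihood test). Sostdc1, a secreted antagonist of Wnt and BMP signalling, averaged 7.14 and 3.61 TPM (-1.03, adjusted p 0.0241 by edgeR). Frzb, a secreted inhibitor of the Sfrp family, averaged 39.3 and 29.7 TPM (-0.46, adjusted p 0.0290 by edgeR). None of the 3 was called without YR612, without YR615 or without YR713, Sostdc1 was also not called without YR711, and 14 of the 70 were called without YR613. Among the 16 transduction genes, beta-catenin itself (Ctnnb1) was at 358 and 366 TPM, and edgeR's quasi-likelihood test and DESeq2 called 0. An unadjusted p under 0.05 was found for 3 of the 16, where the share over all genes was 21.4%. Of 10 barrier genes that Norrin or Wnt7 signalling controls in endothelium, 8 had a negative and 2 a positive value, and edgeR's quasi-likelihood test called 0. The signs were counted without regard to whether signalling raises or lowers each gene, so they give no direction for the pathway. An unadjusted p under 0.05 was found for 2 of the 10, where the share over all genes was 21.4%. These were Cldn5 (-0.52, adjusted p 0.181 by edgeR) and the glucose transporter gene Slc2a1 (-0.35, adjusted p 0.0741 by edgeR). DESeq2 called 1, Slc2a1. The summed markers of melanin pigment cells were lower in the same retinas. Those of the ciliary non-pigmented epithelium overlapped between the groups, but Aqp1, which made up most of that sum, was higher in all Yap cKO retinas (not called). Of the 7 ciliary markers, 3 were called lower and 1 higher. The part of either marker list in the Gpc4, Sostdc1 and Frzb results was not tested.

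**Figure D5:**
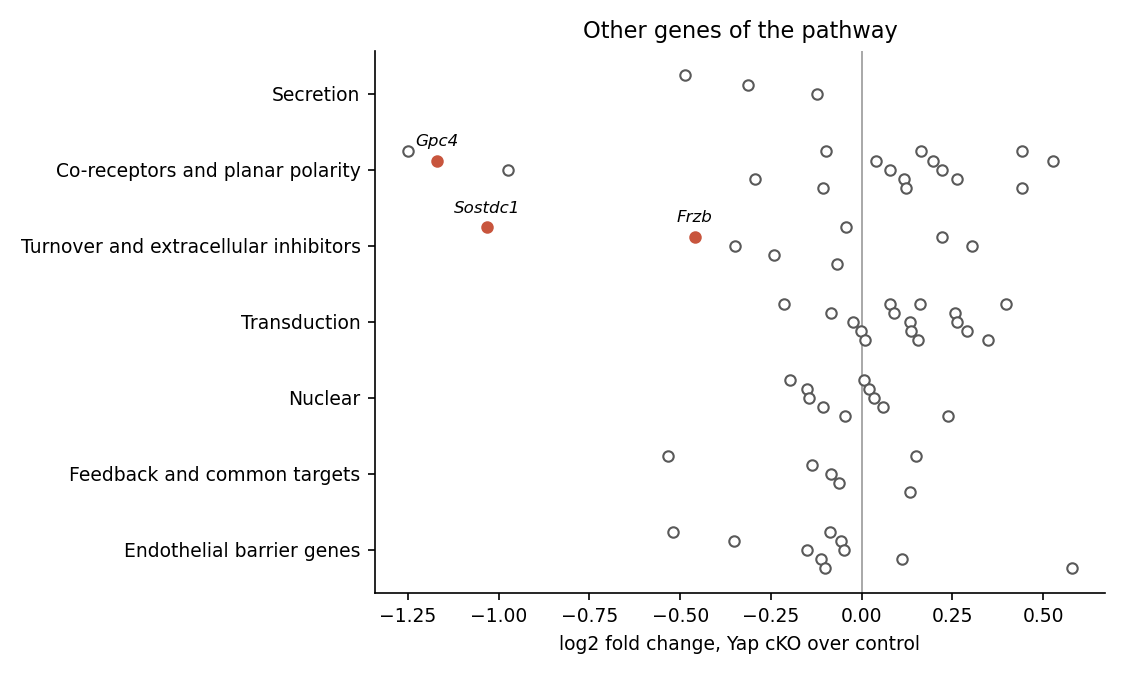
Log2 fold change (Yap cKO minus control) of the 70 tested other Wnt pathway genes by role, 1 point per gene. Filled points have an adjusted p of at most 0.05 and are Gpc4 at -1.17, Sostdc1 at -1.03 and Frzb at -0.46.

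YAP acts on DNA through TEAD factors, and the promoters of the pathway genes were therefore read for the TEAD letters GGAATG, which read CATTCC on the other strand. The RefSeq table of promoters, 300 bases around each start on GRCm38.p6, held 45 promoters of 37 of the 54 genes, Wnt7b not among them. The letters were found in 3 of the 45, those of Lgr4, Tspan12 and one of Wnt5b, where the share over 32851 promoters was 14.7%. These 3 are shown with the TEAD letters in capitals, 5′ to 3′ on the strand of the gene (Lgr4 plus, Tspan12 and Wnt5b minus), at chr2:109917397-109917696, chr6:21852484-21852783 and chr6:119467162-119467461.
Lgr4: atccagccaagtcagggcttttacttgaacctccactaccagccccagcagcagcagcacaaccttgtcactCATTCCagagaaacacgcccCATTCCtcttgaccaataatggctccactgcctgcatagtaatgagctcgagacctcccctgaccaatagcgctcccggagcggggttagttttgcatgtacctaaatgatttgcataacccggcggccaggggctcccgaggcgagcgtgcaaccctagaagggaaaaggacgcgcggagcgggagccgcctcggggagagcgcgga
Tspan12: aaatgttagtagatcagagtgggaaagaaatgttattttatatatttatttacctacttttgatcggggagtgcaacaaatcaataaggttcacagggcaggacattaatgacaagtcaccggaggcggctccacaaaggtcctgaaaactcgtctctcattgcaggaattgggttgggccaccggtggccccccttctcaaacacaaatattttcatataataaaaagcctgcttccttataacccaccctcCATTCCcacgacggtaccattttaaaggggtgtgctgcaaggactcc
Wnt5b: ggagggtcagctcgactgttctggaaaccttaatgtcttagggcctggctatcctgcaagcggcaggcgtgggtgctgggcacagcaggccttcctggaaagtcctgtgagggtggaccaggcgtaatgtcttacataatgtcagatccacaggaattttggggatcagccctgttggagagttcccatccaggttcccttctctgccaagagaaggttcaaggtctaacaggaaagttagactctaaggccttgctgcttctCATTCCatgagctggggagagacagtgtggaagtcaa
None of these 3 genes passed the test between the groups. The TCF/LEF letters CTTTGAT, which read ATCAAAG on the other strand, were found in 2 of the 45, one each of Wnt11 and Wnt5b, and in 3.73% of all promoters. A match describes letters in this window only.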

How the data were processed

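Stranded mRNA libraries were made from total RNA of 6 whole retinas and sequenced as paired ends. The deposited file holds raw fragment counts per gene, which the authors made with STAR 2.7.3a and featureCounts 1.6.2 (reverse strand setting) on GRCm38. The file header gives Ensembl release 98 for counting, whereas the study's methods name another release for the alignment. Default counting leaves out fragments that fall on several genes, and none of the 54 genes shares exons on its strand with another gene. Symbols came from GENCODE M21 by identifier, for 55240 of 55421 genes. Counts were analysed with edgeR 4.0.16 in R 4.3.3 (filterByExpr, TMM, quasi-likelihood F test, Benjamini-Hochberg adjustment over 16575 genes), with no covariates. Standard errors were taken from the log2 fold change and F, and TPM from counts and exonic length over all genes. Depth was 24261799 to 35067068 fragments per retina, which limits precision for genes of a few counts. The labels gave the genotype groups, and no label named a batch. Alternatives were other scalings, no filter on low counts, the edgeR likelihood ratio test, DESeq2 1.42.0, limma-voom (limma 3.58.1), a correction for gene length and leaving out each retina.

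Values are given for every retina for Wnt7b, the Norrin complex and Lrp6, Axin2 and the TCF/LEF genes, the 5 most abundant genes, the 5 largest log2 fold changes in each direction and genes whose groups do not overlap, up to 12. The genes and lists were chosen with earlier results of these data known.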

Additional observations from a re-analysis of the deposited data

How the results depend on the processing

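Wnt7b was called under every alternative run. The number of the 54 genes called was 1 with the other scalings, limma-voom and the length correction, 4 without the filter on low counts (Fzd1, Fzd3 and Wnt2b added), 3 by the edgeR likelihood ratio test (Fzd3 and Wnt2b added) and 2 by DESeq2 (Fzd3 added, 8 genes without an adjusted p). Leaving out each retina gave 1 to 3, with 3 without YR613 (Fzd3 and Wnt2b added) and 2 without YR714 (Fzd3 added). The number meeting the study's criteria was 0, but 1 with no minimum TPM and 0 to 2 when each retina was left out, 2 without YR613 and 1 without YR714. Of the other pathway genes, 3 were called as reported, 13 without the filter, 8 by the likelihood ratio test, 8 by DESeq2, 5 with the length correction and 0 to 14 when each retina was left out, the alternatives for this list having been chosen after seeing the data. Over all genes tested the number called was 247, and it was 1865 without the filter, 1025 by the likelihood ratio test, 892 by DESeq2, 422 with the length correction, 1488 without YR613, 988 without YR714, 151 without YR711, 93 without YR713, 51 without YR612 and 50 without YR615.

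The log2 fold changes that changed sign were all near 0. Dkk3 was -0.013 by library size only and -0.0024 without the filter, and -0.037 to 0.023 when each retina was left out. Lgr4 was -0.027 to 0.12 and Tspan12 -0.11 to 0.088 when each retina was left out, and with the length correction Tspan12 was 0.041 and Lrp6 -0.14. For the other 24 named genes no sign changed. The cause of these differences was not tested. Genes of a few counts, such as Lgr6, Sfrp5, Wif1 and Fzd2, are limited by depth. The p values of the edgeR fit rest on the spread of 3 animals against 3, moderated by the spread over all genes tested.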
